A study of Mus musculus with 4 samples.

Results

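Genes of the BCL2 family were read in macrophages labelled PPARg WT and in macrophages labelled PPARg KO, to ask whether transcripts that set a cell's threshold for apoptosis differ when the nuclear receptor gene Pparg is knocked out. The members were 10 genes fixed by name: the survival genes Bcl2, Bcl2l1 and Mcl1, the pore-forming death effectors Bax and Bak1, the BH3-only death genes Bad, Bid and Bcl2l11, and the mitophagy-linked pair Bnip3 and Bnip3l. The platform annotation assigned 15 probe sets to them, of which 12 had values, out of 10649 probe sets with values in all. Of these 12, 11 were annotated to 1 gene and covered 7 of the members. The remaining probe set was annotated both to Bnip3l and to the pseudogene Bnip3l-ps, so its signal cannot be assigned to Bnip3l alone. Bax had no probe set under its name, the 1 probe set of Bnip3 held no values, and neither gene was analysed here.

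BCL2 family proteins decide whether the outer mitochondrial membrane is opened during apoptosis. Bcl2, Bcl2l1 (which encodes BCL-XL) and Mcl1 hold the membrane closed by binding the effectors and the BH3-only proteins. Bak1 and Bax form the pore that releases cytochrome c, and Bad, Bid and Bcl2l11 (which encodes BIM) carry upstream death signals to them. Bnip3 and Bnip3l sit in the mitochondrial membrane and mark mitochondria for removal by autophagy, and Bnip3 is induced under low oxygen. Many of these proteins are also controlled by cleavage, phosphorylation or degradation, which an RNA measurement does not read.

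Both groups were peritoneal macrophages from mice of a mixed 129/SV and C57BL/6 background, and no ligand or stimulus is named for either. The mice received 2.5 ml of 3% thioglycollate, an irritant that draws monocytes into the peritoneum, and were lavaged 3 days later. The cells adhered for 5 h in 10% serum and then stayed 24 h in 0.5% serum, so all 4 arrays describe cells held in low serum. The groups were 2 WT and 2 KO arrays of an Affymetrix platform; the age of the mice, the deleted part of Pparg and any Cre driver are not given in the sources used here. Nothing in the labels states that arrays within a genotype represent different mice or cultures. Each test below therefore measures the spread between single arrays, and that spread may be technical. In such bulk RNA, fewer cells of a type and less RNA per cell cannot be told apart.

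The array medians ran from 136.7 to 142.0 intensity units. For Pparg itself the WT arrays gave 61.1 and 73.1 and the KO arrays 43.0 and 40.6, below the median of the 12 antisense control probe sets on each array, a log2 difference of -0.52 (limma, adjusted p = 0.00012 in the fit on all probe sets). Without WT replicate 2 that difference was -0.42 (adjusted p = 0.137), and without variance moderation adjusted p was 0.737. Since the deleted part is not known here, whether this probe set can check the genotype labels was not tested. Of macrophage markers, 8 of 9 listed genes had values, all 8 above the highest antisense control on every array, and 0 of 8 passed the test. Of markers of other cells that a lavage can hold, 1 of 4 tested neutrophil genes rose and 1 fell, 1 of 5 fibroblast and mesothelial genes rose, and 0 of 5 B cell, 0 of 2 T and NK cell, 0 of 2 mast cell and 0 of 1 eosinophil genes passed. The summed signal of the 11 fibroblast and mesothelial genes with values was 2093 and 2095 in WT and 2562 and 2890 in KO. Much of that gain was Dcn, the gene of this list that rose (616 and 561 in WT, 945 and 1060 in KO). It was not the only gene of the list to be higher. All 5 tested genes were higher in KO, with a median log2 difference of 0.27, beside 42.1% of all tested probe sets above 0. Of the 5, 3 had an unadjusted limma p under 0.05, beside 9.47% of all tested probe sets. The summed signal of the 10 neutrophil genes was 1501 and 1535 in WT and 1398 and 1418 in KO. The largest fall among the neutrophil genes was that of S100a8 (517 and 542 in WT, 331 and 370 in KO). Of the 4 tested neutrophil genes, 1, Mmp8, was higher in KO. The other 9 summed to 984 and 993 in WT and 1068 and 1048 in KO, a sum taken after the data were seen. That higher KO sum leaned in turn on Mmp8, the neutrophil gene that rose (187 and 158 in WT, 256 and 274 in KO). The part of such cells in the values below was not tested.

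No BCL2 family gene analysed here differed detectably between the genotypes. Of the 10 member probe sets bright enough to be tested, limma called 0 at an adjusted p of 0.05, beside 3.55% of all 6389 tested probe sets (227 calls, 65 higher and 162 lower in KO). At an unadjusted p under 0.05 it again found 0 of 10, beside 9.47% of all tested probe sets. The smallest adjusted p of a tested member probe set was 0.914. With 10 member probe sets, a background of 3.55% means that a count of 0 says little about the family as a group. What the arrays do give is the size of change that each probe set allows. On the log2(signal + 16) scale, the KO minus WT differences of the 10 ran from -0.11 to 0.15 with a median of 0.027. Of the 10, 7 were above 0 and 3 below, beside 42.1% of all tested probe sets above 0, and leaving out 1 array turned the sign of 7 of the 10. Their median size was 0.048, against 0.075 for all tested probe sets, and the smallest called difference among the tested probe sets was 0.35. The background itself depended on scaling and on single arrays: quantile normalization gave 170 higher and 249 lower, leaving out WT replicate 1 left 72 calls and leaving out WT replicate 2 left 56. Without KO replicate 1 the calls were 129 higher and 126 lower, and without KO replicate 2 they were 41 higher and 288 lower. The count of members called stayed at 0 under each.

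**Figure D1:**
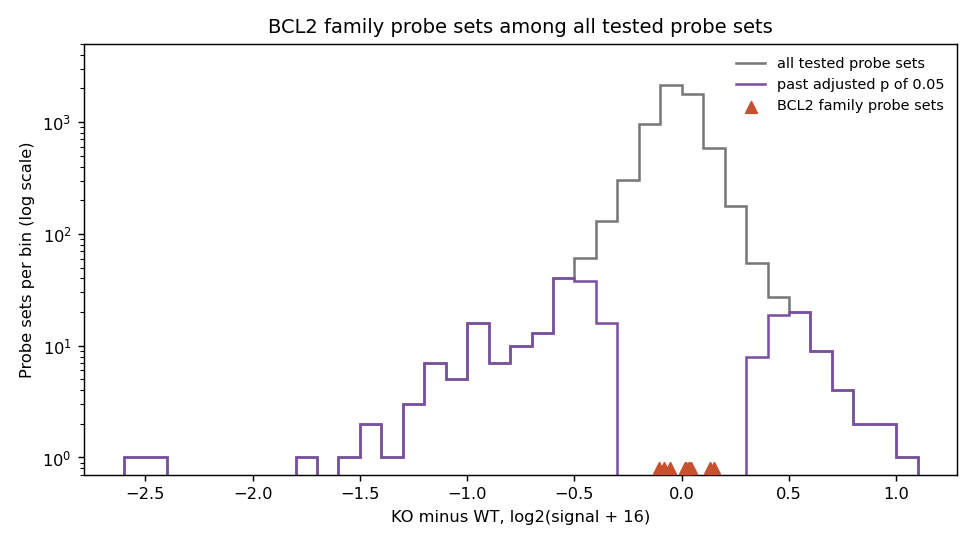
Histogram of the KO minus WT difference, on the log2(signal + 16) scale, over the 6389 tested probe sets (grey outline) and over the 227 that passed an adjusted p of 0.05 (purple outline), with the number of probe sets per bin on a log axis. The red triangles mark the 10 BCL2 family probe sets, which lie between -0.11 and 0.15, while no called probe set lies closer to 0 than 0.35.

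Among the survival genes, Mcl1 encodes a short-lived protein. Its probe set 93093_at read 703 and 708 in WT and 669 and 789 in KO. The KO arrays lay on either side of both WT arrays, so the groups overlapped. The means were 706 ± 3.61 (SD, n = 2) in WT and 729 ± 84.6 (SD, n = 2) in KO, a log2 difference of 0.041 with a 95% interval from -0.26 to 0.34, which is a ratio of signal + 16 from 0.838 to 1.26. The gap between the KO arrays was 0.23 on the log2 scale and that between the WT arrays 0.010. Probe sets of similar brightness (decile 9 of the tested ones) also read higher on KO replicate 2, with a median gap of 0.20. Quantile normalization, which evens out the arrays' distributions, put the Mcl1 difference at 0.089 with adjusted p = 0.798.

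Bcl2, the founding survival gene of the family, was covered by 3 probe sets. The brightest, 98870_at, read 246.5 and 244.1 in WT and 258 and 244.4 in KO. The highest value was on a KO array and the other KO value lay between the WT values. Its log2 difference was 0.032 (SE 0.12, 95% interval -0.20 to 0.26). The probe set 98869_g_at read 196.6 and 185.6 in WT and 194.1 on both KO arrays, which lay between the WT values, a log2 difference of 0.021 (SE 0.11, 95% interval -0.20 to 0.24). The remaining probe set, 98868_at, lay below the signal filter with 29.8 and 38.3 in WT and 29.0 and 25.7 in KO, all under the antisense control median, so no level above background was measured. Its KO values were both lower than its WT values, and the fit on all probe sets, which called 3.11% of them, put its log2 difference at -0.20 (SE 0.11, adjusted p = 0.50). The 3 probe sets carry the same sequence accession in the annotation and so share a source. The dim one had the opposite sign to the 2 bright ones, though none of the 3 passed the test.

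Bcl2l1, whose main product BCL-XL guards mitochondria in many cell types, had 2 probe sets with values. The bright probe set 99027_at read 514.1 and 551.6 in WT and 549.9 and 541.5 in KO. Both KO values lay inside the range of the WT values. The means were 532.9 ± 26.5 (SD, n = 2) and 545.7 ± 5.94 (SD, n = 2), a log2 difference of 0.034 (SE 0.14, 95% interval -0.25 to 0.32). The dim probe set 99026_at read 66.5 and 74.3 in WT and 63.7 and 64.1 in KO, again all below the antisense control median. Its KO values were both lower, with a log2 difference of -0.11 (limma adjusted p = 0.918 in the fit on all probe sets). The sign again differed between the bright and the dim probe set of a gene, though neither passed the test.

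PPARγ pairs with the retinoid X receptor on DNA elements made of direct repeats of the letters AGGTCA with 1 base between the copies. RefSeq promoter windows of GRCm38.p6, each 250 bases before to 50 bases after a gene start, were searched on both strands; they covered 9 of the 10 members with 13 windows. AGGTCA followed by any 1 base and AGGTCA again was in 0 of the 13 windows and in 0.0396% of all 32851 windows. The letters AGGTCA, which every such repeat also contains, were in 1 of the 13, beside 16.3% of all windows. That window belonged to Bcl2l1, and its stretch chr2:152828558-152828623, written 5′ to 3′ on the gene's minus strand, is shown with the match, read on the opposite strand and starting 104 bases before the gene start, in capitals.
Bcl2l1: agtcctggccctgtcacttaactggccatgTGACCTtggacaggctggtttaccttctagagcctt
The gene that carries this match is the Bcl2l1 described above, whose bright probe set differed by 0.034 on the log2 scale between genotypes. No binding was measured here, and a match or its absence in these windows is a description of letters only.

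Bak1, the effector that sits in the outer mitochondrial membrane before any death signal, had 1 of the 2 tested member probe sets whose arrays did not overlap. Its probe set 104710_at read 562.7 and 557.2 in WT and 531.3 and 545.4 in KO. Both KO arrays were lower than both WT arrays. The means were 560.0 ± 3.89 (SD, n = 2) and 538.3 ± 9.97 (SD, n = 2), and the log2 difference was -0.055 (SE 0.14, 95% interval -0.34 to 0.23). Arrays of the genotypes failed to overlap at 32.4% of all tested probe sets, against 2 of 10 here. The WT gap of 0.014 and the KO gap of 0.037 were both smaller than the difference between the means. Of the 10 tested member probe sets, 2 met that condition, beside 22.1% of all tested probe sets. With its own spread in place of the spread pooled over probe sets, the interval of Bak1 was -0.14 to 0.029, the narrowest of the family.

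**Figure D2:**
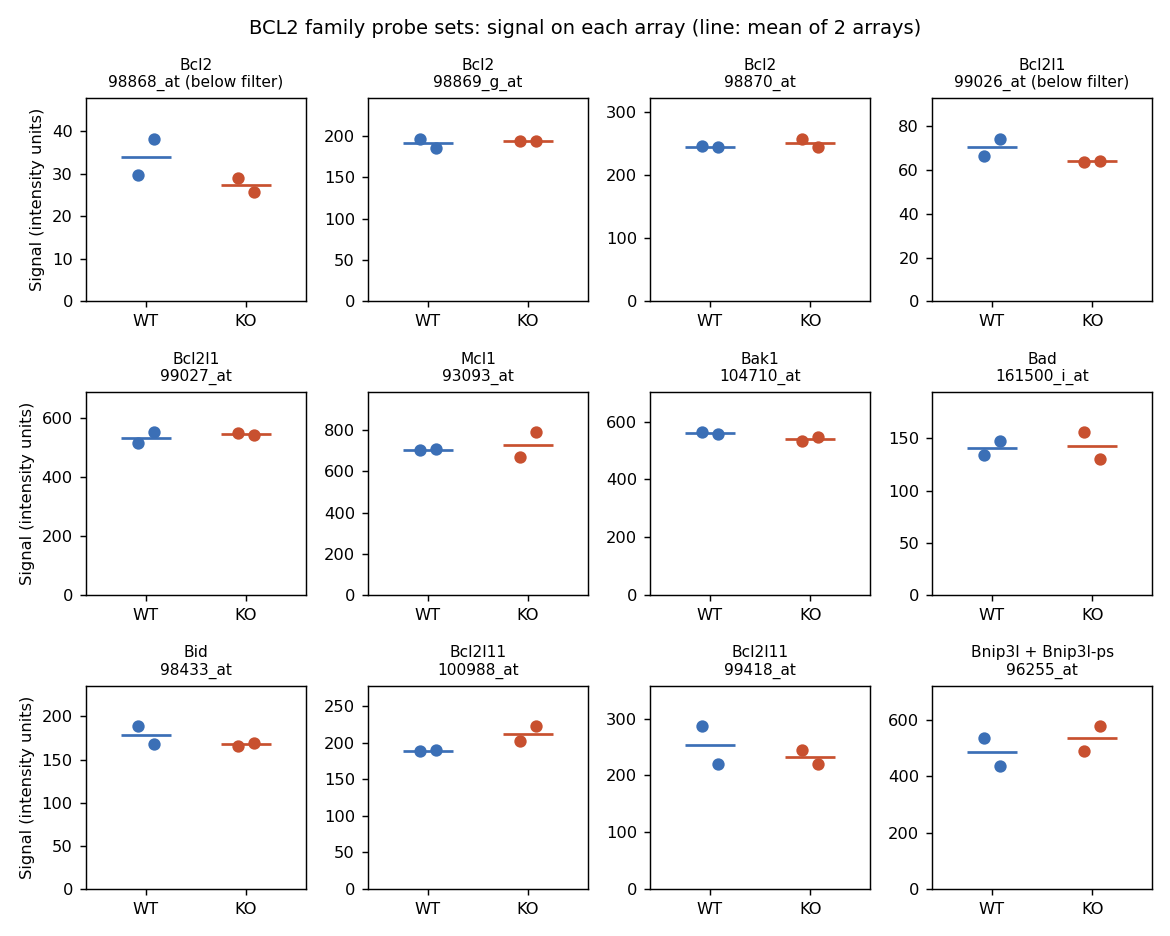
Signal of each of the 12 BCL2 family probe sets, in intensity units on a linear axis from 0, on the 2 WT arrays (blue) and the 2 KO arrays (red); lines mark the mean of 2 arrays, and each panel has its own scale. The genotypes overlap in 8 panels, and they separate for Bak1, for the Bcl2l11 probe set 100988_at and for the 2 dim probe sets of Bcl2 and Bcl2l1.

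The BH3-only genes were next. Bcl2l11 encodes BIM, which is known to drive the death of myeloid cells deprived of growth factors, and its 2 probe sets with values went in opposite directions. The probe set 100988_at read 188.9 and 190.0 in WT and 202.3 and 222.8 in KO. Both KO arrays were higher than both WT arrays. Its log2 difference of 0.15 (SE 0.11, 95% interval -0.069 to 0.37, limma adjusted p = 0.914) was the largest in size of the tested member probe sets. Of all tested probe sets, 77.5% moved less. The probe set 99418_at read 286.7 and 220.1 in WT and 245.1 and 219.6 in KO, with the first WT array highest and the first KO array next. The gaps between arrays of 1 genotype, 0.36 in WT and 0.15 in KO, were both larger than the difference between the genotypes. Its log2 difference was -0.11 (SE 0.12, 95% interval -0.34 to 0.12), and without WT replicate 1 it turned to 0.071. Another Bcl2l11 probe set held no values.

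Bid, which is cleaved by caspase-8 to link death receptors to mitochondria, read 188.7 and 168.3 in WT and 165.8 and 169.6 in KO on 98433_at. The first WT array was the highest and the other 3 lay close together. The log2 difference was -0.081 (SE 0.11, 95% interval -0.30 to 0.14), and without WT replicate 1 it was -0.0048. Bad, which sequesters BCL-XL when survival kinases are off, read 133.9 and 147.9 in WT and 155.7 and 130.4 in KO on 161500_i_at. The KO arrays held both the highest and the lowest value. The log2 difference was 0.017 (SE 0.11, 95% interval -0.20 to 0.23). These signals were dim: 1 of the 4 exceeded the highest antisense control of its array, though all 4 exceeded the antisense median. A second Bad probe set held no values.

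The probe set 96255_at, shared by Bnip3l and Bnip3l-ps, read 537.7 and 438.3 in WT and 491.8 and 578.2 in KO. The highest value was a KO array and the lowest a WT array, and the ranges overlapped. The means were 488 ± 70.3 (SD, n = 2) and 535 ± 61.1 (SD, n = 2), with a log2 difference of 0.13 (SE 0.14, 95% interval -0.15 to 0.41). Both gaps within a genotype, 0.29 in WT and 0.23 in KO, were larger than the difference between the genotypes. The WT arrays also moved against the general trend, since WT replicate 2 was lower here while probe sets of like brightness had a median WT gap of 0.050 in the other direction. Without WT replicate 2 the difference was -0.0115.

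**Figure D3:**
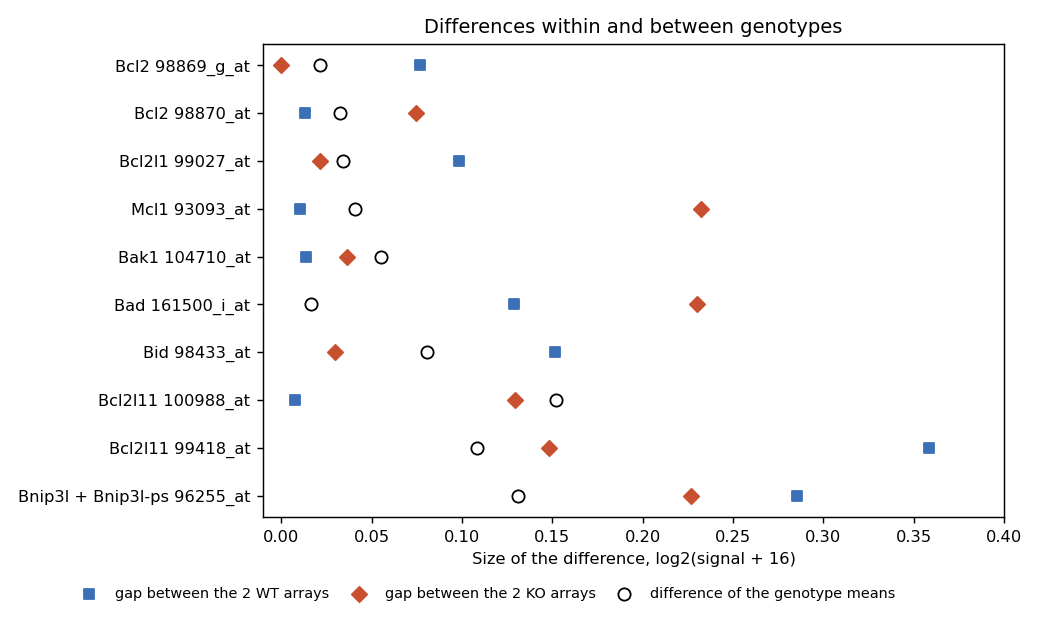
Sizes of 3 differences on the log2(signal + 16) scale for the 10 tested BCL2 family probe sets: the gap between the 2 WT arrays (blue squares), the gap between the 2 KO arrays (red diamonds) and the difference of the genotype means (open circles). The circle lies to the right of both other symbols for Bak1 and for the Bcl2l11 probe set 100988_at, and for the other 8 at least 1 gap within a genotype is larger.

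The intervals show how much change in signal the data leave room for. They are ratios of signal + 16, and no background was taken off the deposited values here. Whether the authors had already done so is not given in the sources used. The added 16 and any background left in the signal make the ratios understate a change in transcript. This matters most at dim probe sets such as that of Bad. With the spread pooled over probe sets, the 95% intervals of all 10 tested member probe sets lay within a 1.5-fold ratio on that scale in either direction. The lowest bound was -0.34 and the highest 0.41 on the log2 scale. The pooled spread is an assumption, since limma estimated an infinite prior and thus gave every probe set the spread typical of its brightness. With each probe set's own spread, on 2 residual degrees of freedom, 8 of the 10 intervals lay within a 1.5-fold ratio of signal + 16. The 2 wider ones were the Bcl2l11 probe set 99418_at, from -0.94 to 0.73, and the shared Bnip3l probe set, from -0.65 to 0.92. Changes inside the intervals cannot be told from none with 2 arrays per genotype, and missing the threshold does not show that the genotypes were equal.

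**Figure D4:**
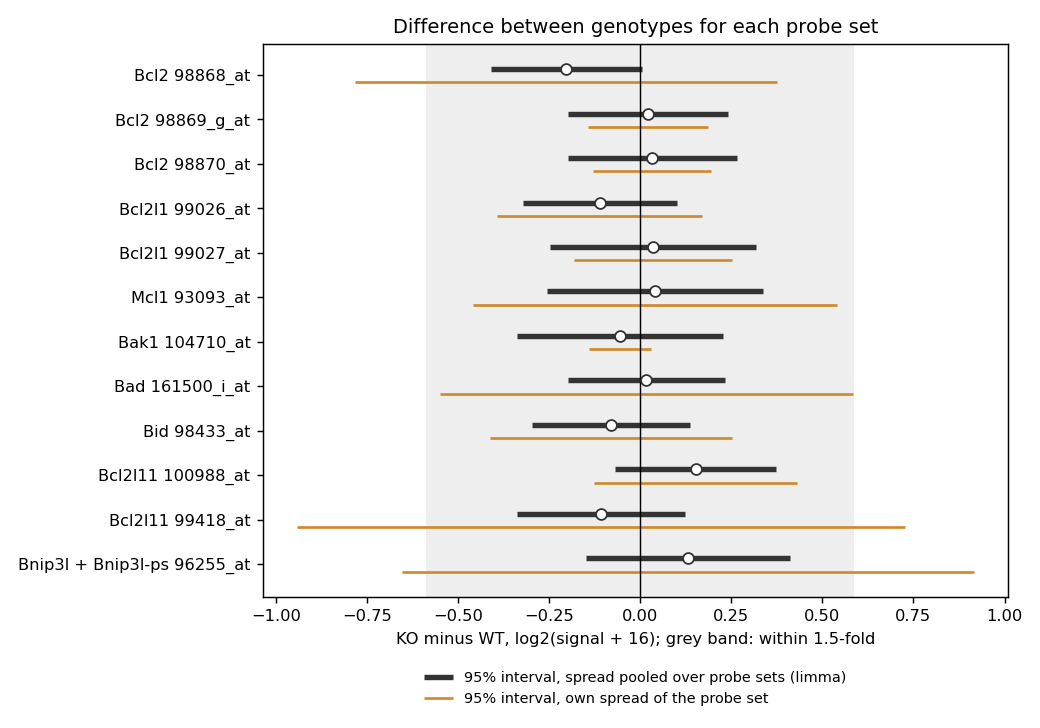
KO minus WT difference on the log2(signal + 16) scale for the 12 BCL2 family probe sets (open circles), with the 95% interval from limma's pooled spread (black) and from the probe set's own spread on 2 degrees of freedom (orange). Every black interval of the 10 tested probe sets lies inside the grey band, a 1.5-fold ratio of signal + 16. The orange intervals of Bcl2l11 99418_at and of the shared Bnip3l probe set reach beyond it. The own-spread interval of the dim Bcl2 98868_at does so too.

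Few genes around the family passed the test. Over 6 lists of other cell death genes and of genes known to act on or with the members, 66 genes were tested by their brightest probe set; 2 fell, 0 rose and 64 did not pass, beside 3.72% of all 5002 genes tested. Of 10 other genes of the BCL2 family and its partners, 1 fell; of 21 factors known to control members, 1 fell; and 0 of 11 genes of the mitochondrial death machinery, 0 of 6 mitophagy genes, 0 of 12 hypoxia-responsive genes and 0 of 7 p53-responsive genes passed. At an unadjusted p under 0.05, limma found 8 of the 66 genes, beside 9.47% of all tested probe sets. That share counts probe sets, and the same share over genes was not computed. By list, in the same order, these were 1 of 10, 2 of 21, 1 of 11, 0 of 6, 3 of 12 and 1 of 7. The median log2 differences of the 6 lists ran from -0.081 to 0.050, against -0.022 for all tested probe sets.

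Hif1a, the oxygen-regulated factor that induces Bnip3, was the controlling factor that fell. Its probe set 98628_f_at read 1822 and 1714 in WT and 1172 and 1232 in KO, with both KO arrays lower, a log2 difference of -0.55 (SE 0.16, adjusted p = 0.0185). Its other probe set 98629_f_at read 1318 and 1166 in WT and 913 and 921 in KO and did not pass (log2 difference -0.43, adjusted p = 0.13). Bcap31, which encodes an endoplasmic reticulum protein that binds BCL2 proteins and is not itself of the family, read 964 and 1115 in WT and 660.5 and 798 in KO (log2 difference -0.50, SE 0.15, adjusted p = 0.0325). Without WT replicate 1, without WT replicate 2, after median centring and without variance moderation neither gene passed, at adjusted p from 0.0748 to 1. The log2 differences in those fits ran from -0.59 to -0.51 for Hif1a and from -0.61 to -0.40 for Bcap31. Bcap31 also missed without KO replicate 1 (log2 difference -0.37, adjusted p = 0.149). As Bnip3 was not analysed here, the fall of Hif1a cannot be set beside the signal of Bnip3. The probe set shared by Bnip3l and Bnip3l-ps differed by 0.13 on the log2 scale. Whether Hif1a acted on any member in these cells was not tested.

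The fit on all probe sets, used above for Pparg and the dim members, called 4 of 86 genes of these lists, 2 higher and 2 lower, beside 3.26% of all 7577 genes. The higher ones were Myc and Epas1, listed as controlling factors and named here after their values were seen. Myc, a growth factor-induced transcription factor, read 35.7 and 35.8 in WT and 46.8 and 61.2 in KO (log2 difference 0.43, SE 0.11, limma adjusted p = 0.00355). Epas1, which encodes the hypoxia factor HIF-2α, read 64.8 and 69.4 in WT and 86.9 and 105.5 in KO (log2 difference 0.43, SE 0.11, limma adjusted p = 0.00485). Both KO arrays were higher for each gene, and on every array both genes were dimmer than the median antisense control.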

How the data were processed

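The 4 arrays were grouped by the genotype in their titles. The authors deposited 1 intensity value per probe set and array, linear as the values show. The sources used here do not give how probes were summarised and scaled. Of 12488 rows, 1780 were blank on all arrays. After 59 control rows were set aside, 10649 remained. Probe sets were named from the platform annotation, with symbols set by gene identifier against the GRCm38.p6 table. Values were used as log2(intensity + 16), and those whose mean exceeded percentile 40 (signal 111) were tested for KO minus WT with limma 3.58.1 under R 4.3.3 (lmFit, eBayes with trend, two-sided, Benjamini-Hochberg over all tested). The 2 member probe sets below the filter, and Pparg, come from the same fit on all probe sets. Every member probe set is given; other genes are named by list where they passed. Members, lists and tests were chosen with earlier results of these data known. The code was tested on simulated data. Alternatives were pseudocounts of 1 and 64, filtering at percentile 60 or not at all, quantile normalization, median centring, robust eBayes, eBayes without trend, a fit without moderation, an adjusted p of 0.1, the replicate number as a block, and each array left out. Figures used matplotlib 3.10.9 in Python 3.11.15.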

Additional observations from a re-analysis of the deposited data

How the results depend on the processing

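Under all 15 alternatives limma called 0 BCL2 family probe sets. Over the 162 values of the 12 member probe sets under alternatives, 154 kept their direction and their side of the threshold, 8 changed sign and 0 passed; the smallest adjusted p was 0.229, for the dim Bcl2 98868_at with the replicate number as a block. All 8 sign changes came from leaving out an array, with log2 differences from -0.0171 to 0.0596 for Bcl2 98869_g_at, -0.005 to 0.0695 for Bcl2 98870_at, -0.0151 to 0.0835 for Bcl2l1 99027_at, -0.0754 to 0.157 for Mcl1, -0.0985 to 0.132 for Bad, -0.287 to 0.0711 for Bcl2l11 99418_at and -0.0115 to 0.274 for the shared Bnip3l probe set.

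Calls over all tested probe sets, 227 as reported, were 419 after quantile normalization, 480 with the replicate block, 0 without variance moderation and 56 to 329 with an array left out. Calls among the other cell death genes, 2 as reported, were 4 after quantile normalization, 4 without a filter (2 higher and 2 lower), 5 with the replicate block, 0 after median centring, 0 without variance moderation and 0 to 5 with an array left out; apart from fewer arrays or degrees of freedom, the cause was not tested. Without moderation 388 probe sets, 2 of the other cell death genes and 0 members had an unadjusted p under 0.05. Arrays of the same number deviated together (correlation 0.42 across probe sets), but with 2 pairs the numbers are not taken to pair the samples. Precision is limited by 2 arrays per genotype, and for Bad and the dim probe sets of Bcl2 and Bcl2l1 by signals near the antisense controls.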
